A study of Mus musculus with 6 samples.

Results

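The 10 genes described here carry the Notch signal: the ligands Jag1, Jag2 and Dll4, the receptors Notch1, Notch2 and Notch3, and the effectors Hes1, Hey1, Hey2 and Heyl. They were chosen by symbol, with earlier results of these data known, and each symbol matched 1 of the 57170 gene identifiers of the deposited table. All 10 passed the filter on low counts and were tested among 17707 genes. At an adjusted p under 0.05 in edgeR 0 of the 10 passed the test between genotypes, where 2.43% of all genes tested did. At an unadjusted p under 0.05 it was 2 of the 10 in edgeR and 2 in DESeq2, where 13.1% and 12.5% of all genes passed. Germ cell transcripts fell. The ligand Jag1 was not lower in RNA of whole testis, which does not show the cells that supplied it. The largest difference among the 10 was that of the other Jagged ligand, Jag2. Its level was lower in every knockout library but the difference did not reach the threshold.

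Notch is a receptor for contact between neighbouring cells. A ligand of the Jagged or Delta-like family on the sending cell pulls on the receptor, proteases release the receptor's intracellular part, and this part joins the DNA-binding protein RBPJ and a Mastermind coactivator to switch on genes of the HES and HEY families, which are transcriptional repressors. In the mouse testis, germ cells present JAG1 to Sertoli cells, the somatic nurse cells of the cords, and the HES and HEY proteins induced there repress Gdnf, a growth factor for spermatogonial stem cells, and Cyp26b1, an enzyme that degrades retinoic acid. Other cells of the testis also use the pathway: DLL4 is a ligand of endothelial cells, and NOTCH3 and HEYL act in the smooth muscle and pericytes of vessels.

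The sKO group holds 4 libraries (sKO-1 to sKO-4) of mouse testes at postnatal day 5 in which Mdm2 was conditionally deleted in germ cells before meiosis. The WT group holds 2 libraries (WT-1 and WT-2) of wild-type testes of the same age. The design text speaks of 3 replicates in each group, but the genotype labels, which were used, give 4 and 2. The labels name no treatment, and the sources used here do not give the strain, the driver of the deletion, any allele the WT mice carried or whether a library pools animals. RNA of whole testis was enriched for polyadenylated messages before sequencing, and because nothing says that each library is a separate animal, the p-values cover only how these libraries vary, which may be technical.

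Library totals ran from 17.99 to 18.39 M expected counts (M, mega). Counts of the 10 genes ranged from 14 for Hey2 to 5025 for Notch2 in a library, so counting error is largest for Hey2, followed by Hey1 with its 48 to 83 counts. Values below are CPM, counts per M counts of the library after TMM scaling. Mdm2 itself, the check of the labels, averaged 43.0 ± 4.24 CPM in sKO (SD, n = 4) and 71.6 ± 6.19 CPM in WT (SD, n = 2), with an edgeR adjusted p of 0.0241. That call ended without sKO-2, sKO-3, WT-1 or WT-2 (adjusted p 0.0561, 0.0739, 0.171 and 0.111). A principal component analysis, whose leading component held 38.1% of the variance, split the libraries into subset 1, of sKO-1, sKO-2 and WT-1, and subset 2, of sKO-3, sKO-4 and WT-2. No label names these subsets, and each holds 1 WT and 2 sKO libraries.

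Germ cell transcripts were lower in sKO testes. Of 12 germ cell markers 11 fell and 0 rose, with a median log2 fold change of -2.32, beside 2.30% of all genes tested that fell and 0.124% that rose (adjusted p under 0.05 by the quasi-likelihood test of edgeR). The summed level of the 12 markers was between 94.0 and 160 CPM in sKO libraries, against 535 to 772 CPM in WT libraries. Dazl, which encodes a regulator of translation in germ cells, averaged 36.9 ± 9.02 CPM in sKO (n = 4) and 186 ± 44.3 CPM in WT (n = 2), a log2 fold change of -2.34 (95% interval -2.85 to -1.82). Ddx4, a helicase of all germ cell stages, averaged 20.1 ± 6.63 CPM in sKO (n = 4) and 99.4 ± 28.7 CPM in WT (n = 2), and the log2 fold changes of Rnf17 and Fkbp6, both germ cell genes, were -2.29 and -2.06. Without WT-1 none of the 12 markers passed, and the Dazl log2 fold change was -2.07 (adjusted p = 0.111). In whole tissue, fewer cells of a type and less RNA per cell cannot be told apart.

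Promoter windows from RefSeq, on GRCm38.p6, were at hand for 7 of the 10 genes; Hes1, Hey1 and Heyl had no entry. Each window runs from 250 bases before to 50 bases after the start. Jag1 and Jag2 are shown because they are the members with the smallest p-values, although neither passed the adjusted test, and Hey2 because it is the only one of the 7 windows that holds GTGGGAA, a core sequence recognised by RBPJ. Jag1 lies at chr2:137116471-137116770, Jag2 at chr12:112929446-112929745 and Hey2 at chr10:30842734-30843033, all on the minus strand and written 5′ to 3′ along the gene. Capitals mark GTGGGAA or its reverse complement TTCCCAC.
Jag1: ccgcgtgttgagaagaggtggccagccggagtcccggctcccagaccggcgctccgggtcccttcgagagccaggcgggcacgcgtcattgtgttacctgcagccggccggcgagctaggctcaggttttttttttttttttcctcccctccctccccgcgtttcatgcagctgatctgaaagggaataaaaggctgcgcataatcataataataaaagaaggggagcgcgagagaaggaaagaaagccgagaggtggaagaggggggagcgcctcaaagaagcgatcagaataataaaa
Jag2: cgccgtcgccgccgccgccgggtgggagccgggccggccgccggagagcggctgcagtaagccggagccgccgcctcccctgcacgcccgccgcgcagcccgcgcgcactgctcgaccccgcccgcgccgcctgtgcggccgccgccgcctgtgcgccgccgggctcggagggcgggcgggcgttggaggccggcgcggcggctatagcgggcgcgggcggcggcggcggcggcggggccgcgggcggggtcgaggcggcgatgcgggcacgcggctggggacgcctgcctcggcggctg
Hey2: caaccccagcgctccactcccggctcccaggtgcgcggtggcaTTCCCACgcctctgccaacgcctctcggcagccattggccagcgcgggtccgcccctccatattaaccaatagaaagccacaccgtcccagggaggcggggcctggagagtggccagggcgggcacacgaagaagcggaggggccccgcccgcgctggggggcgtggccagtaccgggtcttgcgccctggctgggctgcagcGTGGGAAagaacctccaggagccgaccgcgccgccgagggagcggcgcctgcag
The Hey2 window holds the reverse complement at position 44 and the forward letters at position 247, counted from 1 at the 5′ end. Of 32851 promoter windows of this length, 6.38% hold the motif on either strand and 0.256% hold it at least 2 times. The Jag2 window is 86.0% G and C with 63 CpG pairs, the Jag1 window 55.7% with 22, and the median over all windows is 52.7% with 7. A match describes these letters and not binding.

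Jag1 (ENSMUSG00000027276, chromosome 2), the ligand that germ cells present to Sertoli cells, was not lower in sKO testes. RNA of whole testis does not show which cells supplied Jag1, so its level in germ cells was not tested. It was at 40.8, 35.4, 43.9 and 42.6 CPM in sKO-1 to sKO-4, against 34.3 and 32.1 CPM in WT-1 and WT-2. All 4 sKO values lay above both WT values, although sKO-2 was close to WT-1. The means were 40.7 ± 3.74 CPM in sKO (SD, n = 4) and 33.2 ± 1.60 CPM in WT (SD, n = 2). The log2 fold change was 0.29 (SE 0.12, 95% interval 0.02 to 0.57, edgeR adjusted p = 0.349), so the difference did not pass the test over all genes, and the interval with TMM scaling lies above 0. With library sizes set to the Sertoli cell markers the log2 fold change of Jag1 was 0.11.

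Jag2 (ENSMUSG00000002799, chromosome 12), which encodes a second Jagged ligand, was the member with the largest difference. Its level was 8.52, 6.64, 5.95 and 7.05 CPM in sKO-1 to sKO-4, against 12.4 and 11.04 CPM in WT-1 and WT-2. Every sKO library was below both WT libraries, and the groups did not overlap. The log2 fold change was -0.74 (SE 0.19, 95% interval -1.18 to -0.29), with an edgeR adjusted p of 0.122 that misses the threshold. The same difference had an adjusted p of 0.0323 in DESeq2 and 0.0135 in the edgeR fit with the library subset as a term. Germ cell markers were lower in the same 4 libraries, and their part in the Jag2 difference was not tested.

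The ratio of Jag1 to Jag2 within a library needs no scaling between libraries. Per kb of transcript it was 4.35, 4.85, 6.71 and 5.50 in sKO-1 to sKO-4, against 2.52 and 2.64 in WT-1 and WT-2. The ratio was thus higher in each sKO library than in both WT libraries. It was formed after the values of both genes were seen and carries no test.

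Dll4 (ENSMUSG00000027314, chromosome 2), the endothelial Delta-like ligand, was at 6.25, 5.84, 8.84 and 7.22 CPM in sKO-1 to sKO-4, against 4.36 and 7.49 CPM in WT-1 and WT-2. The groups overlapped, with WT-1 the lowest of the 6 libraries and WT-2 above 3 of the 4 sKO libraries. The log2 fold change was 0.25, and its 95% interval of -0.41 to 0.91 leaves room for a change in either direction. The summed level of the 11 endothelial markers analysed was between 353 and 422 CPM in sKO and 320 to 352 CPM in WT. The part of endothelial cells in the Dll4 values was not tested.

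**Figure D1:**
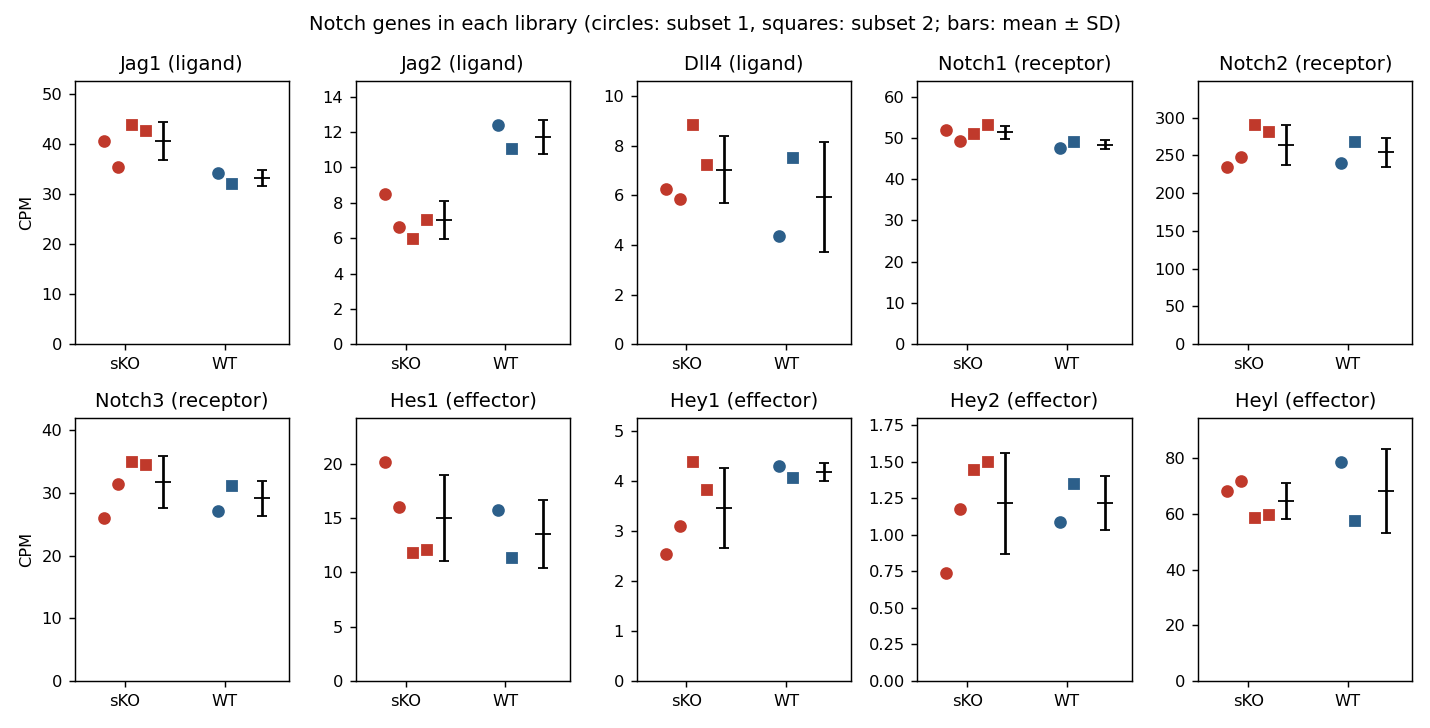
CPM of the 10 Notch genes in each library, sKO on the left and WT on the right of each panel; circles are libraries of subset 1, squares those of subset 2, and bars give the mean and SD (n = 4 and n = 2). Jag1 is higher and Jag2 lower in each sKO library than in either WT library, while Dll4, Notch2, Notch3 and the 4 effectors overlap between the genotypes.

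The receptors differed little between genotypes. Notch1 (ENSMUSG00000026923, chromosome 2), which acts in many cell types including endothelium, was at 52.0, 49.3, 51.1 and 53.2 CPM in sKO-1 to sKO-4, against 47.6 and 49.1 CPM in WT-1 and WT-2. The sKO values lay above the WT values by a small margin, 49.3 CPM in sKO-2 beside 49.1 CPM in WT-2. The log2 fold change was 0.09 with a 95% interval of -0.11 to 0.28, the narrowest of the 10 genes.

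Notch2 (ENSMUSG00000027878, chromosome 3) was the most abundant member, at 234, 248, 290 and 281 CPM in sKO-1 to sKO-4, against 240 and 267 CPM in WT-1 and WT-2. Its groups overlapped, and both WT libraries lay within the sKO range (log2 fold change 0.05, 95% interval -0.21 to 0.32). Notch3 (ENSMUSG00000038146, chromosome 17), the receptor of vascular smooth muscle, was at 25.9, 31.4, 35.0 and 34.5 CPM in sKO-1 to sKO-4, against 27.2 and 31.2 CPM in WT-1 and WT-2. Here too both WT libraries lay within the sKO range (log2 fold change 0.12, interval -0.23 to 0.47). Under scaling to the Sertoli cell markers the log2 fold changes of Notch1, Notch2 and Notch3 turned to -0.08, -0.12 and -0.05, so the sign of their small differences depends on the scaling. Exons of Notch1, Notch3 and Dll4 overlap those of less abundant genes on the opposite strand (for Notch1, 0610009E02Rik at 6.62 CPM in sKO and 4.21 CPM in WT), and the sources used here do not say whether counting used the strand. Scaling to the Sertoli cell markers moved the median log2 fold change of all genes to -0.14, against 0.03 with TMM.

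None of the effectors passed the test, and the genotypes overlapped for each. Hes1 (ENSMUSG00000022528, chromosome 16), an effector often used as a readout of Notch activity, was at 20.2, 16.1, 11.8 and 12.1 CPM in sKO-1 to sKO-4, against 15.8 and 11.3 CPM in WT-1 and WT-2. The libraries of subset 1 were the high ones in both genotypes, and the groups overlapped. Its log2 fold change was 0.15 (SE 0.26, 95% interval -0.46 to 0.76), or -0.03 when scaled to the Sertoli cell markers.

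Heyl (ENSMUSG00000032744, chromosome 4), the most abundant effector, was at 68.3, 71.9, 58.6 and 59.5 CPM in sKO-1 to sKO-4, against 78.8 and 57.4 CPM in WT-1 and WT-2. WT-1 was the highest and WT-2 the lowest of the 6 libraries, so the WT pair spanned the whole sKO range. The log2 fold change was -0.08 with a 95% interval of -0.42 to 0.27. The summed pericyte and smooth muscle markers were at 774 to 997 CPM in sKO and 908 to 1127 CPM in WT, with WT-2 the highest. Acta2 was the largest part of this sum, at 327 to 461 CPM in sKO and 388 and 550 CPM in WT-1 and WT-2. The sum does not separate pericytes from smooth muscle, and the part of either in the Heyl values was not tested.

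Hey1 (ENSMUSG00000040289, chromosome 3) was at 2.54, 3.11, 4.39 and 3.81 CPM in sKO-1 to sKO-4, against 4.31 and 4.06 CPM in WT-1 and WT-2. Only sKO-3 exceeded the WT libraries, and the log2 fold change was -0.27 (95% interval -0.92 to 0.37). Hey2 (ENSMUSG00000019789, chromosome 10) was at 0.741, 1.18, 1.44 and 1.50 CPM in sKO-1 to sKO-4, against 1.09 and 1.35 CPM in WT-1 and WT-2, with overlapping groups. Its log2 fold change was -0.01, and the interval of -0.91 to 0.90 holds changes of nearly 1 log2 unit either way.

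Compared per kb of the longest protein-coding transcript, the levels of the 10 genes kept nearly the same order in both genotypes. Notch2 stood first at 25.1 ± 2.52 CPM per kb in sKO and 24.2 ± 1.85 in WT (SD, n = 4 and n = 2). Heyl followed at 14.2 ± 1.44 CPM per kb in sKO and 15.0 ± 3.34 in WT, then Hes1 at 10.2 ± 2.70 in sKO and 9.23 ± 2.15 in WT. The library ranges of Heyl and Hes1 overlapped, 12.7 to 17.4 and 7.71 to 13.8 CPM per kb, and so did those of Hes1 and Jag1 at their edges.

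Jag1 came next at 7.24 ± 0.666 CPM per kb in sKO and 5.91 ± 0.285 in WT, above Notch1 in each library, and Notch3 followed. Dll4, Jag2 and Hey1 lay between 1.05 and 2.43 CPM per kb with overlapping ranges. In sKO Dll4 averaged 1.88 and Jag2 1.38 CPM per kb, while in WT Dll4 averaged 1.58 and Jag2 2.30 CPM per kb. Hey2 was last at 0.477 CPM per kb in sKO and 0.479 in WT.

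Summed per kb, the 3 ligands were at 10.6, 9.17, 11.3 and 10.9 CPM per kb in sKO-1 to sKO-4, against 9.71 and 9.87 in WT-1 and WT-2. Jag1 supplied most of this sum, which overlapped between the genotypes. The 4 effectors summed to 30.2, 28.5, 23.3 and 23.5 CPM per kb in sKO-1 to sKO-4, against 30.3 and 22.6 in WT-1 and WT-2. The effector sum followed the library subsets, with about the same value in the libraries of either genotype within a subset.

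**Figure D2:**
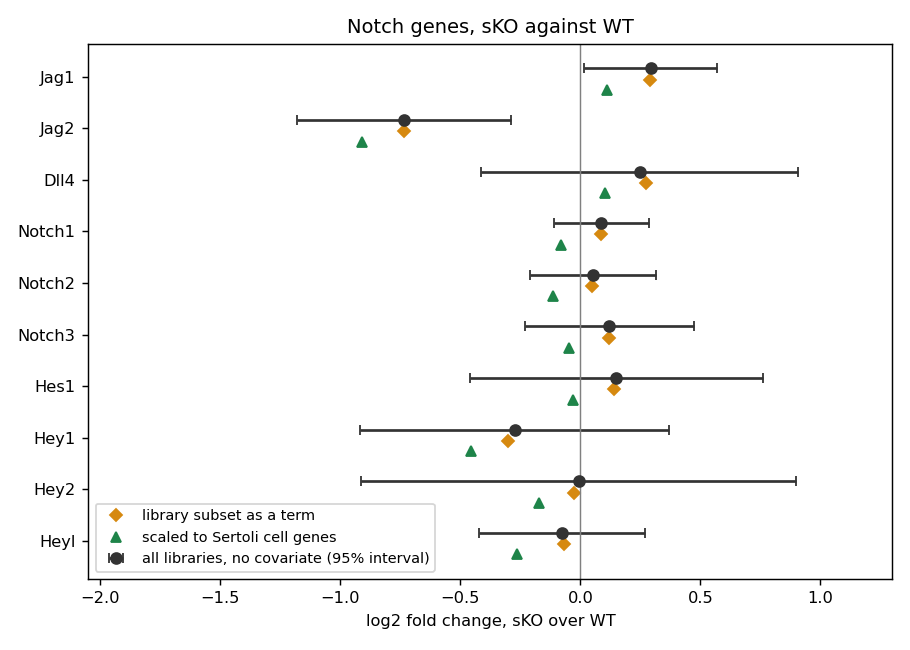
Log2 fold change of sKO over WT for each Notch gene, with 95% intervals from the edgeR fit over all 6 libraries (circles), beside the estimate with the library subset as a term (diamonds) and with library sizes set to the Sertoli cell markers (triangles). The interval of Jag2, -1.18 to -0.29, lies below 0 and that of Jag1, 0.02 to 0.57, just above it, while those of the other 8 genes include 0.

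Across the 10 genes 6 log2 fold changes were positive and 4 negative, with a median of 0.07, beside 0.03 for all genes tested. Scaled to the Sertoli cell markers, 2 were positive and 8 negative, with a median of -0.10, beside -0.14 for all genes. The 2 genes with an unadjusted p under 0.05 in edgeR were Jag1 (0.0407) and Jag2 (0.00536), where 13.1% of all genes passed in edgeR and 12.5% in DESeq2. The sKO libraries lay above both WT libraries for Jag1 and Notch1, where 9.79% of all genes did so, and below both for Jag2, where 13.3% did so. Groups that did not overlap in either direction were thus found for 3 of the 10 genes, beside 23.0% of all genes.

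Within the library subsets Jag2 was lower by a log2 CPM difference of -0.71 in subset 1 (sKO-1 and sKO-2 minus WT-1) and -0.76 in subset 2 (sKO-3 and sKO-4 minus WT-2). Jag1 was at 0.15 in subset 1 and 0.43 in subset 2. Hes1 stood at 0.19 and 0.07, so that its wide spread lay between the subsets, where WT-2 minus WT-1 was -0.48 and the sKO-3 and sKO-4 mean minus the sKO-1 and sKO-2 mean was -0.59.

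Hey1 was at -0.60 in subset 1 and 0.01 in subset 2, and Heyl at -0.17 and 0.04. With the subset as a term, edgeR put Hes1 at 0.14 (SE 0.12, adjusted p = 0.500) and Heyl at -0.07 (SE 0.07, adjusted p = 0.540), each with a smaller SE than without the term. In that fit Jag2 was the only one of the 10 genes past the threshold, where 4.97% of all genes rose and 8.65% fell. Jag1 had an adjusted p of 0.0750. The subsets were read from the same libraries, so the p-values of that fit may be too small.

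**Figure D3:**
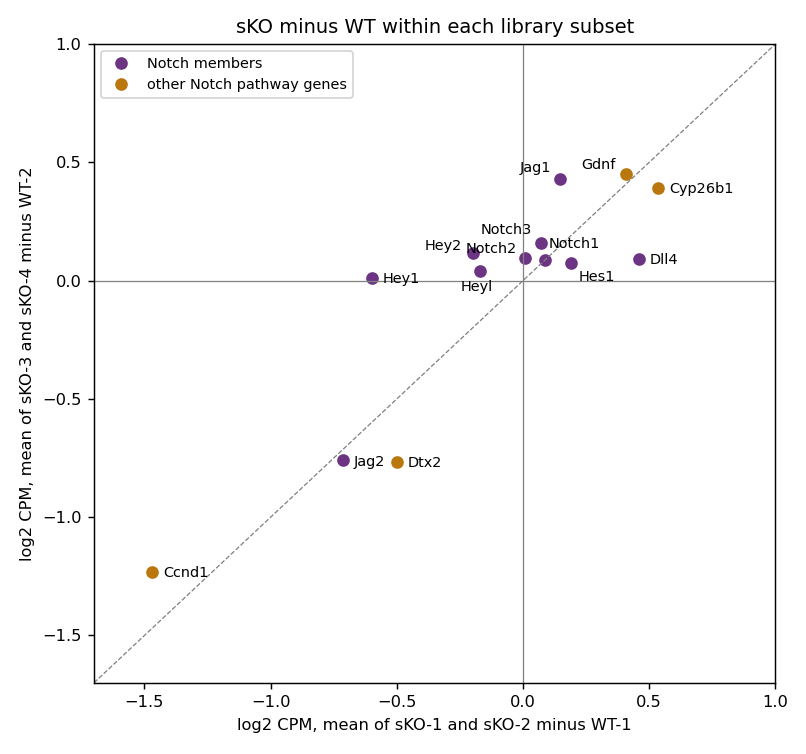
Difference in log2 CPM between sKO and WT within subset 1 (horizontal axis) and within subset 2 (vertical axis) for the 10 Notch genes and 4 other genes of the pathway. The dashed line marks equal differences. The 4 other genes are those of the pathway lists with the smallest adjusted p in edgeR, and do not stand for the rest of the pathway. Jag2, Ccnd1 and Dtx2 lie low, and Gdnf and Cyp26b1 lie high, in both subsets, while Hey1 and Dll4 differ mainly in subset 1. Jag1 is at 0.15 in subset 1, below Hes1 and Dll4, and at 0.43 in subset 2.

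The rest of the pathway was read from lists written from textbook knowledge, with earlier results of these data known. Of 60 further genes 57 were tested, of which 0 rose and 1 fell in edgeR, where 0.124% of all genes rose and 2.30% fell. Their median log2 fold change was 0.08, beside 0.03 for all genes. At an unadjusted p under 0.05, 9 of the 57 (15.8%) passed in edgeR and 9 in DESeq2, where 13.1% and 12.5% of all genes did. The sKO libraries lay above both WT libraries for 11 and below both for 6 of the 57 genes, where 9.79% of all genes lay above and 13.3% below.

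Gdnf and Cyp26b1, the Sertoli cell genes that HES and HEY proteins repress, were both higher in every sKO library. Gdnf was at 66.0, 74.7, 75.6 and 80.0 CPM in sKO-1 to sKO-4, against 52.9 and 56.9 CPM in WT-1 and WT-2. The groups did not overlap, and the log2 fold change was 0.43 (SE 0.10, 95% interval 0.19 to 0.67, edgeR adjusted p = 0.0918). Cyp26b1 was at 460, 391.8, 482 and 462 CPM in sKO-1 to sKO-4, against 293 and 360 CPM in WT-1 and WT-2. Its groups did not overlap either, and the log2 fold change was 0.46 (SE 0.12, 95% interval 0.17 to 0.75, edgeR adjusted p = 0.136).

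Neither gene therefore passed edgeR without a covariate. Both passed DESeq2 (adjusted p 0.0242 for Gdnf and 0.0269 for Cyp26b1), where 112 of 17707 genes rose. Both also passed edgeR with the subset term (0.00485 for Gdnf and 0.00415 for Cyp26b1), where 4.97% of all genes rose. Leaving out single libraries moved the log2 fold change between 0.38 and 0.48 for Gdnf and between 0.32 and 0.59 for Cyp26b1. Scaled to the Sertoli cell markers, the log2 fold changes were 0.26 for Gdnf (adjusted p = 0.269) and 0.30 for Cyp26b1 (adjusted p = 0.0928). The summed Sertoli markers were at 6233 to 7015 CPM in sKO and 5341 to 6525 CPM in WT, and their part in both differences was not tested. None of the 4 effector genes described above passed the test in either direction.

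Ccnd1, which encodes cyclin D1 and is a Notch target in several tissues, was the gene that fell. It was at 15.6, 14.1, 17.0 and 21.8 CPM in sKO-1 to sKO-4, against 41.3 and 45.4 CPM in WT-1 and WT-2. The groups were far apart, and the log2 fold change was -1.34 with an SE of 0.17 (adjusted p = 0.0152 in edgeR). The call ended without WT-1 (adjusted p = 0.147) or WT-2 (0.0628). Germ cell markers were lower in the same libraries, and their part in the fall of Ccnd1 was not tested. Exons of Ccnd1 overlap those of a gene on the opposite strand, listed as LTO1, that averaged 18.2 CPM in sKO and 20.2 CPM in WT.

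**Figure D4:**
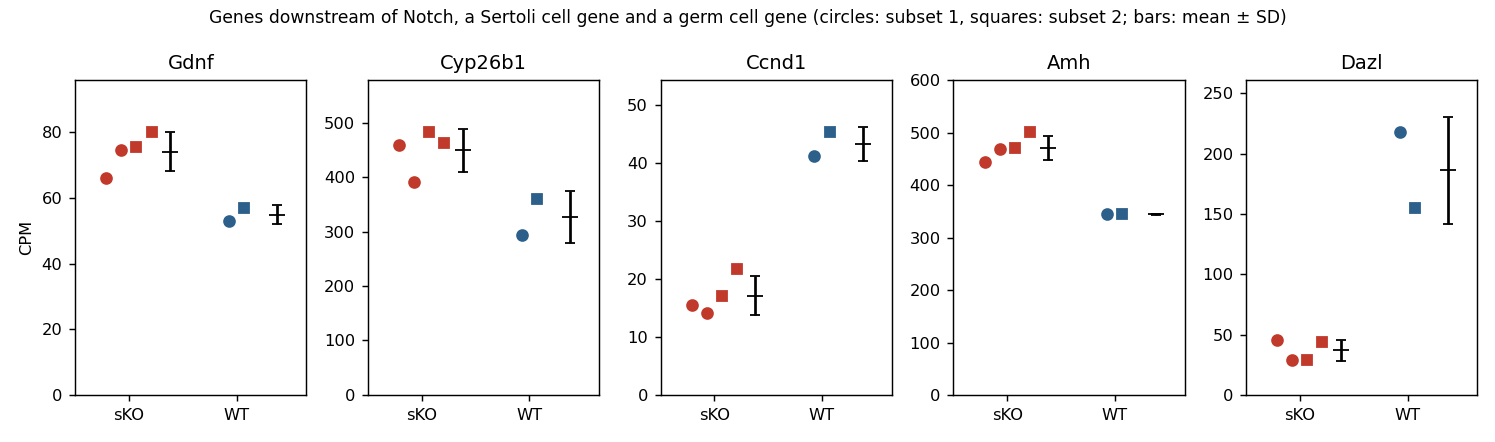
CPM in each library of Gdnf, Cyp26b1 and Ccnd1, of the Sertoli cell gene Amh and of the germ cell gene Dazl, sKO left of WT; circles are subset 1, squares subset 2, and bars give the mean and SD (n = 4 and n = 2). Gdnf, Cyp26b1 and Amh are higher, and Ccnd1 and Dazl lower, in each sKO library than in either WT library.

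No gene of the lists for ligands, ligand activity, receptor processing, the transcription complex, corepressors or receptor turnover passed the test, and genes chosen as the most abundant of each are given here. Among ligand-like genes Dlk1 had a log2 fold change of 0.35 and Dner of -0.25. Mib1 and Mib2, the ubiquitin ligases that make ligands active in the sending cell, were at 0.09 and 0.20, and the receptor Notch4 was at -0.07. Pofut1, which adds the fucose that the receptors need, was at 0.20 and Poglut1, which adds glucose, at -0.10.

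Adam10, the protease that makes the first activating cut, and Ncstn, a subunit of the gamma-secretase that makes the next, were at 0.05 and 0.13. Ep300 and Snw1, cofactors of the RBPJ complex, were at -0.04 and -0.02, and the corepressor Ncor1 at 0.05. Nedd4 and Dtx4, ubiquitin ligases that act on Notch receptors, were at 0.19 and 0.26. Among the genes named here from these lists the smallest adjusted p in edgeR was 0.347 (Pofut1). Over all genes of these lists it was 0.128, for Dtx2 (log2 fold change -0.62).

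With the library subset as a term, 5 of the 57 genes rose and 4 fell, where 4.97% of all genes rose and 8.65% fell. The genes that rose were Gdnf, Cyp26b1, Dlk1 (0.37, adjusted p = 0.0132), Pofut1 (0.20, adjusted p = 0.0471) and Bhlhe40 (0.37, adjusted p = 0.0475), a transcriptional repressor. The genes that fell were Ccnd1, the ubiquitin ligase gene Dtx2 (-0.63, adjusted p = 0.0150) and the corepressor genes Spen (-0.27, adjusted p = 0.0297) and Kdm5a (-0.28, adjusted p = 0.0338). Bhlhe40, Dtx2, Spen and Kdm5a were named after their values were seen.

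Few markers of the somatic cells that also carry Notch genes passed the test, where 0.124% of all genes rose and 2.30% fell, and each marker analysed had counts in all 6 libraries. Of 12 Sertoli cell markers 1 rose and 0 fell: Amh, anti-Müllerian hormone, averaged 471 ± 22.9 CPM in sKO (n = 4) and 345 ± 1.005 CPM in WT (n = 2), which is 0.45 on the log2 scale (adjusted p = 0.0429 in edgeR), and whose call ended without any 1 of the 6 libraries. Cldn11, a tight junction gene of Sertoli cells, had a log2 fold change of -0.44 (adjusted p = 0.0714) and Inhbb, an inhibin subunit gene, of 0.29, and the median of the Sertoli list was 0.15. Of 11 pericyte and smooth muscle markers 0 rose and 1 fell: Cnn1, the contractile protein calponin, was at 0.878 ± 0.169 CPM in sKO and 2.92 ± 0.169 CPM in WT (edgeR adjusted p = 0.0323), a call that also ended without any 1 of the libraries. The log2 fold changes of this list went both ways, 5 positive and 6 negative with a median of -0.13, among them the myosin gene Myh11 at -0.54 (adjusted p = 0.0948) and the pericyte receptor gene Pdgfrb at 0.36 (adjusted p = 0.222). Of 11 endothelial, 7 Leydig, 7 macrophage and 8 stromal markers 0 passed in either direction, with median log2 fold changes of 0.22, 0.27, -0.09 and 0.22. Some of the 3 genes with the smallest adjusted p in each of these lists are given with their log2 fold changes. They were the junction gene Esam (0.40), the hormone gene Insl3 (0.52) and the steroid enzyme gene Hsd3b1 (0.26). The others were the receptor gene Csf1r (-0.19) and the transcription factor gene Tcf21 (0.26). Before adjustment 4 of the 12 Sertoli and 5 of the 11 pericyte and smooth muscle markers had p below 0.05. So did 2 of the 8 stromal and 0 of the endothelial, Leydig and macrophage markers. These counts were the same in edgeR and DESeq2, beside 13.1% and 12.5% of all genes. With the subset term, 4 Sertoli markers rose and 1 fell, and 2 pericyte and smooth muscle markers rose and 4 fell. In that fit 4 stromal markers and 1 endothelial marker rose, and 0 Leydig or macrophage markers passed. Of all genes 4.97% rose and 8.65% fell in it.

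Over the 6 libraries, the genes whose log2 CPM, centred on their own mean, lay closest to Jag1 were Glb1l3, Slc19a2, a thiamine transporter, and Spry1, an inhibitor of receptor tyrosine kinase signalling, with root mean square differences of 0.034, 0.057 and 0.060. For Hes1 they were Zfyve19, Mtrf1 and the kinase gene Wnk4, with 0.033, 0.039 and 0.040. Among 13181 genes compared over 6 libraries such closeness describes the profiles and carries no test.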

How the data were processed

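PolyA RNA of mouse testes at postnatal day 5 was sequenced in 4 sKO and 2 WT libraries. The deposited table holds expected counts per gene that the authors made, and fastp, STAR, RSEM and the mm39 build are named in the submitters' processing notes. The sources used here do not give their roles and versions, the annotation or the strand. Identifiers were matched to GENCODE M21 symbols for 51742 of 57170 rows (99.2% of counts), and 444 rows without an Ensembl identifier are among the unmatched.

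Counts were rounded and tested with edgeR 4.0.16 in R 4.3.3: filterByExpr with a minimum count of 10, TMM, the two-sided quasi-likelihood test over 17707 genes and Benjamini-Hochberg adjustment with a threshold of 0.05. Log2 CPM used a prior count of 2, and 95% intervals came from the SE. CPM per kb used the longest protein-coding GENCODE M21 transcript. Alternatives were DESeq2 1.42.0, limma-voom 3.58.1, other scalings and filters, a library subset term, a replicate block and leaving out each library. The edgeR fit without a covariate, DESeq2 and limma-voom were run on simulated data, which held no library subsets. The other alternatives were not run on simulated data. Library pairs of a group differed by more than sampling noise (chi-square per gene 3.92 to 23.7), so none were pooled. The sKO pairs within a subset were the most alike (6.65 for sKO-1 with sKO-2, 3.92 for sKO-3 with sKO-4). Pairs across the subsets were at 19.3 to 23.7.

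The members and gene lists were chosen with earlier results of these data known. All 10 members are named, and Mdm2, Dazl and Ddx4 as the check of the labels; of a pathway list, genes past the threshold or else its 2 most abundant, and of a marker list up to 3 genes with the smallest adjusted p; others are said to be named after their values were seen. The pathway lists held ligands, ubiquitin ligases of the sending cell, Notch4, glycosylation, cleavage, transcription complex, corepressors, receptor turnover, targets and repressed Sertoli genes. Of the listed endothelial genes 1 was not analysed here. The values of 1 corepressor gene that the rule names are not reported here, and it stays in the counts over lists.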

Additional observations from a re-analysis of the deposited data

Results flagged for a closer look

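Among 34 values checked over the 4 sKO libraries, 1 had a single library far from the other 3, and chance alone flags about 1 in 20 such sets. Adam10 was at 179 CPM in sKO-1, below the other sKO libraries at 205 to 209 CPM, a gap of 0.847 of the group's range. None of the 10 Notch genes stood out in this way.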

How the results depend on the processing

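None of the 10 Notch genes was called in any of the 60 fits that left out 1 library. Of 110 other fits of these genes, 108 stayed on the same side of the threshold. The remaining 2 brought Jag2 past it (-0.73 in DESeq2 and -0.74 with the subset term), so that 1 member fell in each of those 2 settings. No member was called in the main fit, so these counts say nothing about direction. Over these other fits Notch1 (-0.08 to 0.10), Notch2 (-0.12 to 0.06) and Notch3 (-0.05 to 0.13) changed sign. So did Hes1 (-0.03 to 0.42), Heyl (-0.26 to 0.04) and Hey2 (-0.378 to 0.003). Leaving out single libraries moved Jag2 between -0.85 and -0.65 and Jag1 between 0.22 and 0.35, while Hes1 (-0.10 to 0.41), Heyl (-0.32 to 0.17), Dll4 (-0.09 to 0.66), Notch2 (-0.02 to 0.11) and Hey2 (-0.16 to 0.17) changed sign. Further pathway genes numbered 2 higher and 2 lower in DESeq2 and 5 higher and 4 lower with the subset term, and between 0 and 1 lower with a library left out. Over all genes 22 rose and 408 fell: DESeq2 gave 112 and 685, the subset term 880 and 1531, and scaling to the Sertoli cell markers 7 and 489. Leaving out a library left 2 to 7 higher and 1 to 225 lower, the fewest without WT-1. The cause was not tested. Deviations from the group mean correlated at 0.42 for the libraries numbered 1 and -0.44 for those numbered 2. The deviations of WT-1 and WT-2 are exact opposites, so these values are not separate checks of pairing by replicate number. Among libraries numbered 1 and 2, the replicate block gave 19 higher and 268 lower genes and the fit without it 9 and 187. With 2 WT libraries, the WT spread rests on a single difference, and low counts limit Hey1 and Hey2.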
